A study of Mus musculus with 87 samples.

Results

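Mtm1, Itgb1bp1, Sspn and Clip4 are 4 genes whose signal on an expression array stood apart in the mouse strain A/J when it was averaged over 6 brain regions and the pituitary gland. They were chosen by the size of the A/J difference itself, from the top of the list in either direction, so the values of that contrast are given below for the leading probe sets as a description and without a test. They are 4 of 8251 genes that had a probe set of their own. All probe sets annotated to one of the 4 genes alone were followed: 2 for Mtm1, 3 for Itgb1bp1 and 1 each for Sspn and Clip4. That makes 7 of the 12422 probe sets on the array that are not controls, and all 7 were among the 8460 bright enough to be tested. Since the choice was made on these arrays, a difference of A/J in them is no independent evidence that the genes are set apart there. Sspn was not apart from every other strain: A/J exceeded 129S6/SvEvTac by 0.21 and C57BL/6J by 0.28 on the log2 scale.

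The study measured RNA of wild-type male mice of 6 inbred strains (A/J, and as the strains it is set against FVB/NJ, DBA/2J, C57BL/6J, C3H/HeJ and 129S6/SvEvTac), all 8 weeks old, on 87 Affymetrix MG_U74Av2 arrays. The 7 tissues were the bed nucleus of the stria terminalis (a forebrain relay of the amygdala), hippocampus, hypothalamus, periaqueductal gray of the midbrain, pituitary gland, amygdala and cingulate cortex. A/J had 15 arrays and the other 5 strains 72, spread over 42 groups of strain and region, of which 39 had 2 arrays and 3 had 3. Each array held the pooled RNA of 1 to 5 mice (5 for the pituitary gland). RNA of the amygdala and cingulate cortex was amplified in 2 rounds from 50 ng, whereas 10 µg from each of the remaining 5 regions went through a single round. Apart from the check of tissue markers that follows, levels of regions are therefore compared only within a labelling protocol.

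Array medians of intensity lay between 42.6 and 66.1. Marker sums were compared over both labelling protocols, as a check of the tissue. Those of the pituitary gland, hippocampus and periaqueductal gray, and of the hypothalamus among the brain regions, were highest in the tissue of that name. The joint list of cortex and amygdala had medians of 9078 in the cingulate cortex, 4893 in the hippocampus and 4627 in the amygdala. Striatal markers did not set the bed nucleus apart, with a median summed intensity of 1747 there, 1761 in the hypothalamus and 1873 in the periaqueductal gray. In the amygdala, labelled in 2 rounds, it was 5427. Animals were shared: 79 arrays, 13 of the 15 A/J arrays among them, share at least 1 named animal with an array of a different region, and 4 arrays name the same animals as the other array of their own group. The strain profile of 4 pituitary arrays went against the label. In that gland, arrays carrying the label C3H/HeJ or FVB/NJ correlated at -0.34 to -0.30 with the profile of their own strain and at 0.86 to 0.90 with that of the other, whereas the remaining 83 arrays correlated at 0.73 to 0.95 with their own. Tests that single out C3H/HeJ or FVB/NJ rest in part on these 4 arrays, and the main ones are given with and without them. Levels of these strains over all 7 regions carry the labels as given. Since arrays shared animals, all p-values below describe the spread among arrays, which may be technical in part, and in pieces of tissue a smaller number of cells of a type cannot be told apart from less RNA per cell.

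The 4 genes are known for distinct roles. Mtm1 encodes myotubularin, a lipid phosphatase that removes the 3-phosphate from phosphoinositides of endosomes and whose loss causes X-linked myotubular myopathy. Itgb1bp1 encodes ICAP-1, which binds the cytoplasmic tail of integrin beta 1, limits integrin activation and partners with Krit1, a protein of the cerebral cavernous malformation complex. Sspn encodes sarcospan, a membrane protein that joins the sarcoglycans in the dystrophin complex of muscle. Clip4 belongs to the family of CAP-Gly linker proteins, whose founding member Clip1 tracks the growing ends of microtubules. In a table of RefSeq genes (assembly GRCm38.p6) they lie on chromosomes X, 12, 6 and 17.

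The A/J difference below is taken on the scale log2(intensity + 16): in each region the A/J mean less the mean of the 5 other strain means, and then the average of the 7 values. On this scale the 3 largest positive differences that kept their sign in all 7 regions were those of Mtm1 (probe set 98524_f_at, 1.97 ± 0.05, SE), Itgb1bp1 (100989_at, 1.27 ± 0.06) and Sspn (102378_at, 1.15 ± 0.06). The next was H2-D1, a class I histocompatibility gene, at 1.07 ± 0.07. Clip4 (160975_at) had the third largest negative difference, -1.15 ± 0.10, between Pam (peptidylglycine alpha-amidating monooxygenase) at -1.25 ± 0.11 and the noncoding RNA Gas5 at -1.14 ± 0.05. Of all probe sets tested, 14.8% differed in A/J at an adjusted p below 0.05 (limma, Benjamini-Hochberg), 4 being higher by at least 2-fold (0.0473%) and 11 lower (0.13%).

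**Figure D1:**
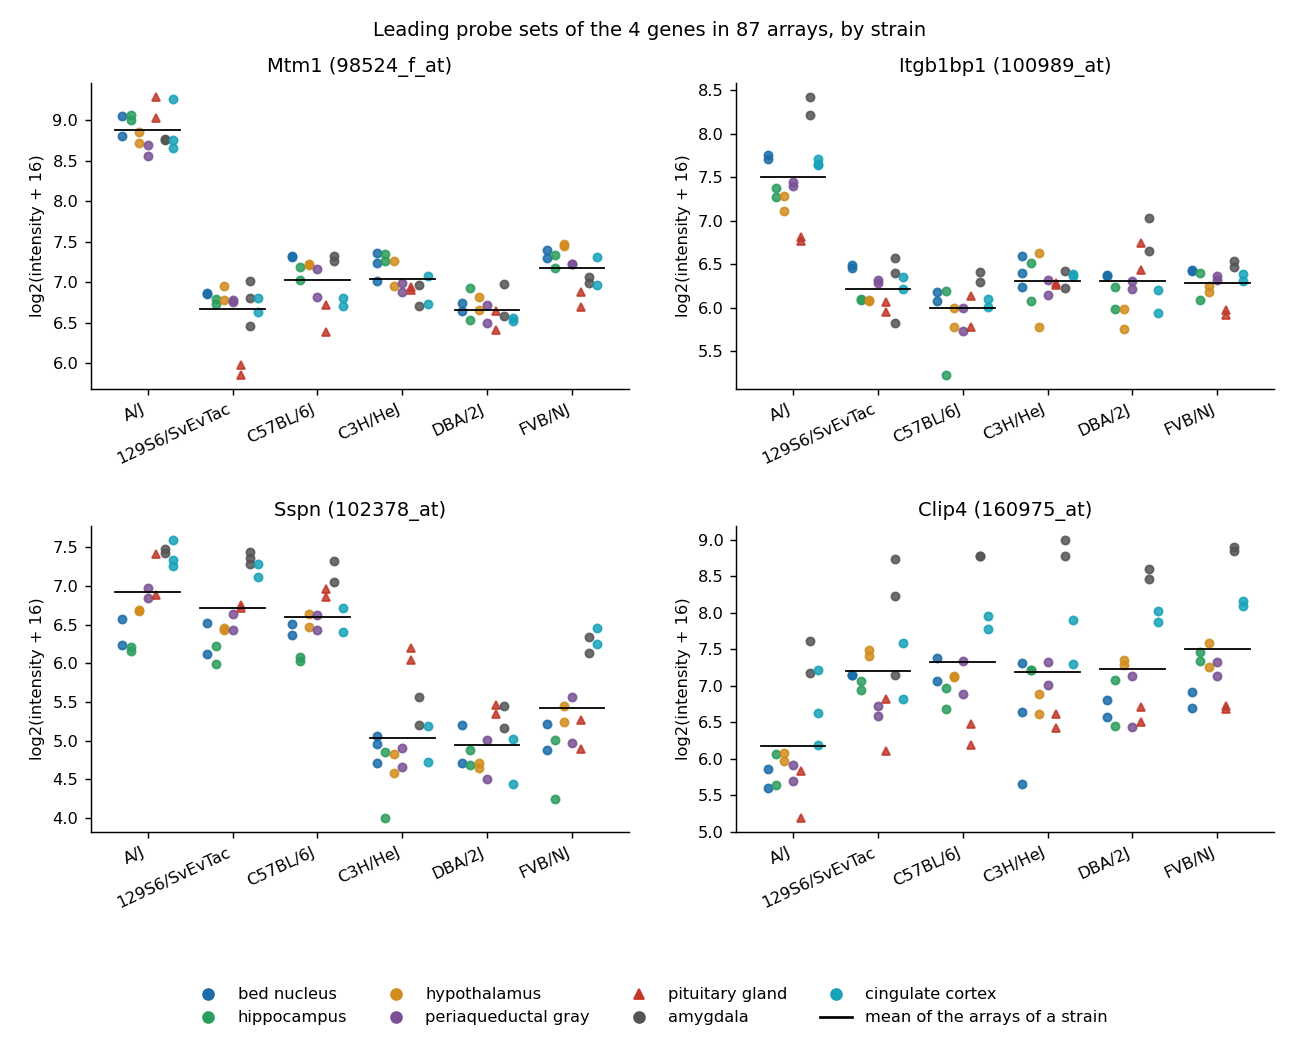
Points are single arrays, coloured by region (triangles for the pituitary gland), on the scale log2(intensity + 16), for the probe set of each gene with the largest A/J difference. Lines are strain means over all arrays of a strain. A/J stands alone at the top for Mtm1 and Itgb1bp1 and lowest on average for Clip4, while for Sspn it lies beside 129S6/SvEvTac and C57BL/6J.

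Mtm1 gave the widest separation. Intensity of 98524_f_at was 362 at the lowest, 432 at the median and 610 at the highest in the 15 A/J arrays, against 42.03, 105 and 162 in the 72 arrays of the other strains. The lowest A/J array was above the highest array of any other strain, and no other tested probe set had all A/J arrays above all others (0.0118% of 8460) or all below (0%). Mean intensity was 463 ± 75.4 in A/J, 131 ± 22.3 in FVB/NJ, 118 ± 19.4 in C3H/HeJ, 118 ± 25.2 in C57BL/6J, 88.4 ± 20.2 in 129S6/SvEvTac and 86.0 ± 12.1 in DBA/2J (SD, n = 15, 14, 15, 14, 15 and 14). Strain accounted for 92.7% of the variance of the 42 group means, where the median over all tested probe sets was 3.54%. This share includes the A/J groups, by whose difference the probe set was chosen, and is a description.

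The other strains also differed in this Mtm1 signal. That comparison contains no A/J value in the means compared, and its limma F test passed at an adjusted p (Benjamini-Hochberg) of 4.91e-11, as did that of 32.8% of all tested probe sets. Among the 5 strains FVB/NJ exceeded the mean of the other 4 by 0.33 ± 0.05 on the log2 scale, and 129S6/SvEvTac and DBA/2J lay below theirs by the log2 differences -0.31 ± 0.05 and -0.32 ± 0.05 (limma, adjusted p = 1.18e-06, 1.95e-06 and 2.27e-06). The same contrasts called 11.1%, 15.7% and 11.6% of all probe sets. Without the 4 pituitary arrays in doubt the FVB/NJ difference was 0.33 (adjusted p = 5.98e-06, limma). With scan day as a fixed term these 3 differences were 0.25, -0.28 and -0.26 and none passed (adjusted p = 0.0643, 0.111 and 0.130). C3H/HeJ exceeded its 4 peers by 0.15 (limma, adjusted p = 0.046, 8.1% of all probe sets called). Without the 4 arrays in doubt the C3H/HeJ difference was 0.09 and did not pass (limma, adjusted p = 0.307). In the order of levels, FVB/NJ did not pass the test against C3H/HeJ (C3H/HeJ minus FVB/NJ -0.15 ± 0.06, limma adjusted p = 0.204), C57BL/6J against C3H/HeJ (adjusted p = 0.996) or 129S6/SvEvTac against DBA/2J (adjusted p = 0.977). These pairs called 5.85%, 16.2% and 14.3% of all probe sets. Without the 4 arrays, C3H/HeJ minus FVB/NJ was -0.19 and C57BL/6J minus C3H/HeJ 0.06 (limma, adjusted p = 0.0811 and 0.583).

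The other Mtm1 probe set, 96199_at, was built on another Mtm1 sequence and showed little of this pattern. Its intensity was 33.6 at the lowest, 70.1 at the median and 99.7 at the highest in A/J, against 26.8, 57.1 and 82.6 in the other strains, and the groups overlapped in 6 of the 7 regions. Its A/J difference was 0.20 ± 0.05 (limma, adjusted p = 0.00235), and C3H/HeJ was nearest to A/J, at 0.04 below it (0.01 without the pituitary gland). Within each region the A/J difference of 98524_f_at exceeded that of 96199_at by 1.53 to 2.36 log2 units (mean 1.77 ± 0.32, SD over 7 regions). Over the 42 group means the probe sets correlated at 0.22, as a description of groups that share arrays and labelling. The suffix _f marks a probe set whose probes match several similar sequences, and how much of its signal comes from Mtm1 was not tested.

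**Figure D2:**
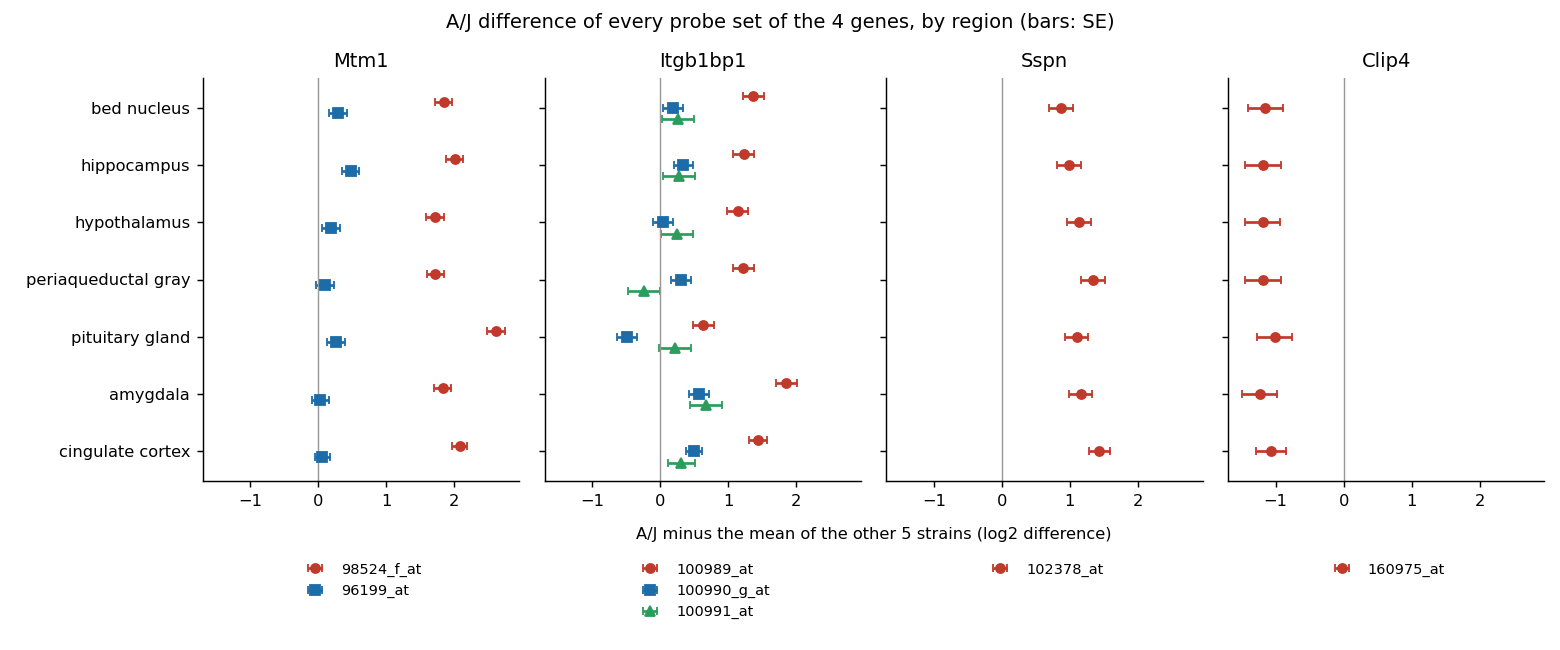
Each symbol is the log2 difference of A/J from the mean of the other 5 strains in a region for one probe set, and bars are SE from limma. The leading probe sets (red circles) stay on their side of 0 in all 7 regions, and the other probe sets of Mtm1 and Itgb1bp1 (squares and triangles) lie closer to 0 in every region.

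Itgb1bp1 showed the same split between probe sets. Intensity of 100989_at ran from 92.5 through a median of 159 to 326 in A/J, against 21.5, 59.8 and 115 in the other strains. Within each of the 7 regions every A/J array was above every array of the other strains, which held for 3 of the 8460 tested probe sets (0.0355%), although arrays of different regions overlapped. The level (the mean log2 value turned back into intensity) was 164 in A/J, 62.9 in DBA/2J, 62.9 in C3H/HeJ, 62.2 in FVB/NJ, 58.4 in 129S6/SvEvTac and 47.7 in C57BL/6J. A/J minus each other strain lay between 1.19 (DBA/2J and C3H/HeJ) and 1.497 (C57BL/6J). Among the other strains C57BL/6J was lower by -0.28 ± 0.06 on the log2 scale than the mean of the other 4 (limma, adjusted p = 2.97e-04; 19% of all probe sets called), and no other strain passed against its 4 peers.

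Probe set 100990_g_at, designed on the same Itgb1bp1 sequence as 100989_at, had intensities of 64.4, 126 and 171 (lowest, median, highest) in A/J, against 35.1, 107 and 207 in the other strains. Its A/J difference was 0.21 ± 0.05 (limma, adjusted p = 0.00421), but it was 0.08 (adjusted p = 0.332) without the amygdala and cingulate cortex and its adjusted p was 0.121 when the 42 group means were used as samples. A/J exceeded C57BL/6J by 0.60 and the other 4 strains by 0.07 to 0.17. In 100990_g_at the strain that stood apart was C57BL/6J, at a level of 74.8 beside 107 to 122 in the other 5, and lower than the mean of its 4 peers by -0.49 ± 0.06 (limma, adjusted p = 5.65e-10). The third probe set, 100991_at, came from another sequence and was dim, with intensities of 13.9, 45.7 and 104 in A/J, against 11.5, 32.9 and 142 in the other strains. Its difference of 0.25 ± 0.09 (limma, adjusted p = 0.0423) did not pass in 8 of 14 alternative settings, nor without any 1 of 13 arrays (lowest value 0.21, adjusted p = 0.140, without the second A/J amygdala array). It too set C57BL/6J apart from the other 4 strains, but upward, by 0.43 ± 0.09 (limma, adjusted p = 2.96e-04), though not with scan day as a fixed term (0.28, adjusted p = 0.223). Direction in C57BL/6J thus depended on the Itgb1bp1 probe set, while 100989_at exceeded 100990_g_at in its A/J difference by 0.88 to 1.29 log2 units in every region (mean 1.06 ± 0.15, SD over 7 regions).

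The size of the A/J difference depended on the region for 3 of the 7 probe sets, against 5.31% of all tested probe sets (limma F test). For 98524_f_at of Mtm1 it was 1.71 in the hypothalamus, 1.72 in the periaqueductal gray, 1.83 in the amygdala, 1.84 in the bed nucleus, 2.00 in the hippocampus, 2.08 in the cingulate cortex and 2.61 in the pituitary gland (limma F test, adjusted p = 0.00788). In that gland the A/J arrays reached 610 and 506, against 42.03 to 107 in the other strains, and 129S6/SvEvTac was lowest with 47.2 and 42.03. For 100989_at of Itgb1bp1 the pituitary gland was at the other end, with 0.63, and the amygdala was highest with 1.86 (adjusted p = 0.0101, limma). The A/J amygdala arrays had 280 and 326, against 40.8 to 115 in the other strains, and the A/J pituitary arrays 92.5 and 96.4, against 38.8 to 90.9. For 100990_g_at the sign changed: A/J was lower in the pituitary gland by -0.49, with 109 and 126 against 113 to 207, and higher by 0.57 in the amygdala (adjusted p = 0.00594, limma). None of these dependences passed without the pituitary gland: the limma adjusted p values were then 0.463, 0.208 and 0.390 for 98524_f_at, 100989_at and 100990_g_at. Without the first A/J pituitary array alone they were 0.117, 0.0542 and 0.0724, and with scan day as a random block 0.0713, 0.0567 and 0.0510. Without the second A/J amygdala array the value for 100989_at was 0.0579. No dependence passed the test for 96199_at, 100991_at, Sspn or Clip4 (adjusted p = 0.390, 0.480, 0.447 and 0.998).

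Sspn separated the strains into a high and a low set, with A/J in the high one. Intensity of 102378_at was 55.6 at the lowest, 102 at the median and 177 at the highest in A/J, 47.8, 83.2 and 158 in 129S6/SvEvTac and 49.2, 78.7 and 145 in C57BL/6J. In the low set it was 2.96, 22.3 and 72.1 in FVB/NJ, -3.09, 14.1 and 57.1 in C3H/HeJ and 5.81, 14.9 and 28.1 in DBA/2J. Beyond these 2 strains, A/J exceeded FVB/NJ by 1.46, C3H/HeJ by 1.84 and DBA/2J by 1.94 on the log2 scale. A/J arrays lay above all others in the hypothalamus and periaqueductal gray alone. Folds against the low strains depend on the 16 added before the logarithm: the A/J difference was 1.47 with 4 added and 0.66 with 64.

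**Figure D3:**
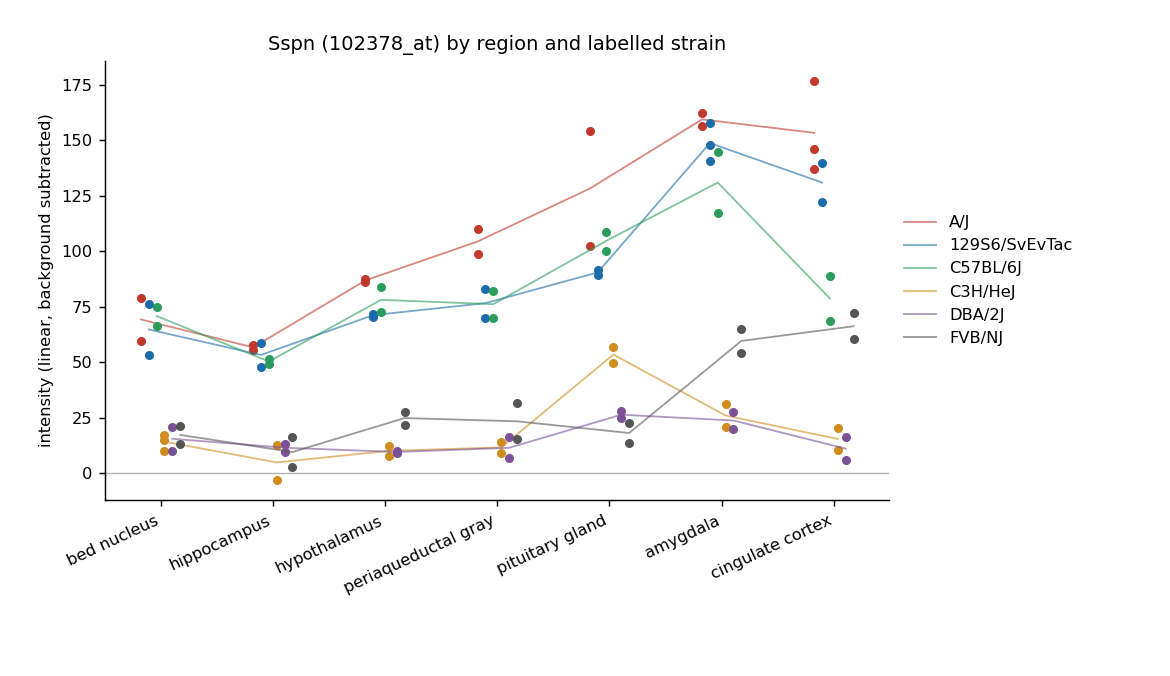
Points are single arrays and lines join the means of a labelled strain, with intensity on a linear axis and regions along the bottom. The arrays of C3H/HeJ, DBA/2J and FVB/NJ lie below those of A/J, 129S6/SvEvTac and C57BL/6J in every region except the cingulate cortex, where an FVB/NJ array (72.1) lies above a C57BL/6J array (68.6). In the pituitary gland the arrays labelled C3H/HeJ (49.9 and 57.1) lie above those labelled FVB/NJ (22.5 and 13.8).

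The strain difference in Sspn did not need A/J. Among the other 5 strains the limma F statistic was 197 (adjusted p = 1.19e-27), rank 28 of 8460 probe sets, and 6 of the 7 probe sets of the 4 genes passed this test (Clip4 did not), against 32.8% of all. With the 42 group means as samples 3 of the 6 did not pass, 100989_at (limma, adjusted p = 0.171), 96199_at (0.0783) and 100991_at (0.0681). The first also did not pass with scan day as a random block (0.0757), nor the second without the amygdala and cingulate cortex (0.0817). 129S6/SvEvTac exceeded the mean of the other 4 by 1.17 ± 0.07 and C57BL/6J by 1.08 ± 0.07, and C3H/HeJ, DBA/2J and FVB/NJ differed from theirs by -0.87 ± 0.07, -0.99 ± 0.07 and -0.39 ± 0.07 (limma, adjusted p at most 1.94e-05). The C3H/HeJ contrast called 8.1% of all probe sets. Without the 4 pituitary arrays in doubt the C3H/HeJ and FVB/NJ differences were -1.03 and -0.25 (limma, adjusted p = 1.37e-16 and 0.0136). 129S6/SvEvTac and C57BL/6J did not pass the test against each other (0.07 ± 0.09, limma adjusted p = 0.71; 11.8% called), nor did C3H/HeJ and DBA/2J (0.09 ± 0.08, adjusted p = 0.662; 6.71% called), which differed by -0.01 without the 4 arrays (adjusted p = 0.977). FVB/NJ lay above DBA/2J (DBA/2J minus FVB/NJ -0.48 ± 0.09, limma adjusted p = 3.5e-05, where 8.49% were called; -0.61 without the 4 arrays) and was highest among the low strains in the cingulate cortex, at 72.1 and 60.4. The FVB/NJ difference did not pass with scan day as a fixed term (-0.19, adjusted p = 0.375) or with group means as samples (adjusted p = 0.0716). Without the pituitary gland, where the labels of C3H/HeJ and FVB/NJ are in doubt, the levels were 98.5 in A/J, 85.2 in 129S6/SvEvTac, 77.9 in C57BL/6J, 28.7 in FVB/NJ, 13.3 in DBA/2J and 13.1 in C3H/HeJ. Without the 4 pituitary arrays in doubt the A/J difference was 1.10, against 1.15 with them.

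Clip4 was the gene lower in A/J. Intensity of 160975_at was 20.4 at the lowest, 46.8 at the median and 179 at the highest in A/J, against 34.2, 125 and 493 in the other strains. Every A/J array was below every other array within the hippocampus, hypothalamus, periaqueductal gray and pituitary gland, and 0.189% of the tested probe sets did the same in at least 4 regions. In the bed nucleus, A/J had 32.3 and 41.8, where the second C3H/HeJ array had 34.2. In the amygdala A/J had 179 and 128, where 129S6/SvEvTac had 411, 126 and 283. In the cingulate cortex A/J had 56.8, 132 and 82.5, where the lowest array of the other strains had 96.9. The A/J difference was alike over the 7 regions, from -1.02 in the pituitary gland to -1.23 in the amygdala.

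**Figure D4:**
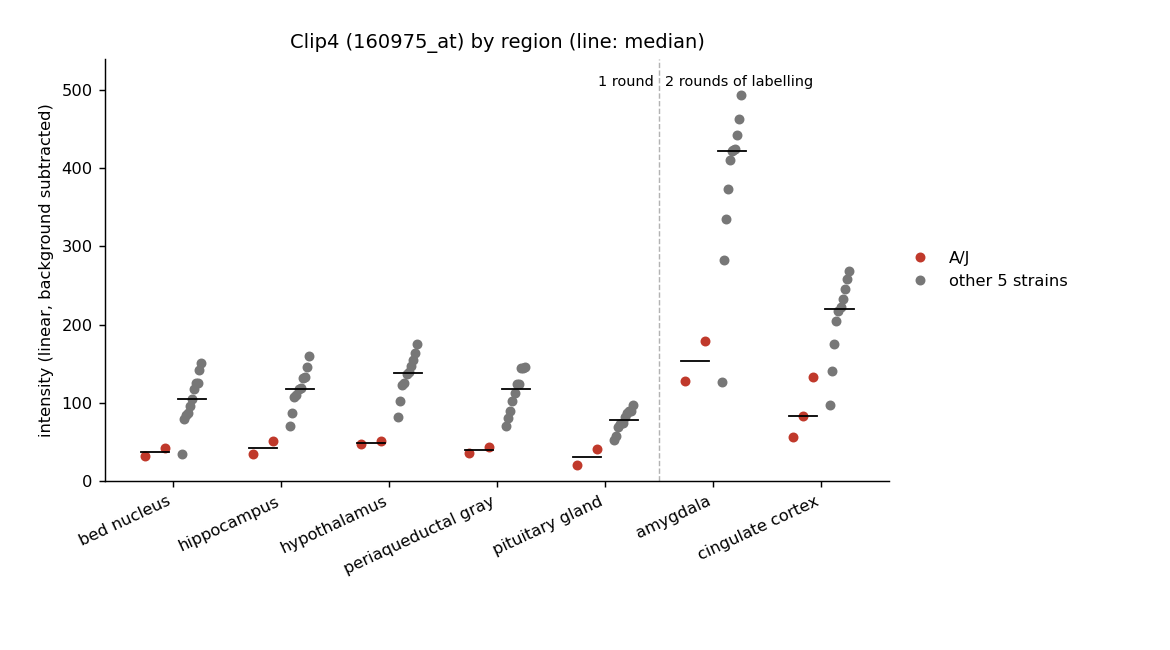
Points are single arrays with A/J in red on the left of each region and the other 5 strains in grey, lines are medians, and the axis is linear intensity. A/J lies lowest in the 4 regions from the hippocampus to the pituitary gland and overlaps the other strains in the bed nucleus, amygdala and cingulate cortex.

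The level of Clip4 was 54.4 in A/J, 166 in FVB/NJ, 144 in C57BL/6J, 135 in C3H/HeJ, 134 in DBA/2J and 125 in 129S6/SvEvTac. Differences among the 5 strains other than A/J did not pass the F test (limma, adjusted p = 0.123). Of the pairs among them, 129S6/SvEvTac minus FVB/NJ alone passed (-0.37 ± 0.13, limma adjusted p = 0.0342, where 15.5% were called), and without the 4 pituitary arrays in doubt it was -0.39 (adjusted p = 0.0417). The F test passed without the first 129S6/SvEvTac amygdala array (adjusted p = 0.0476). Strain accounted for 30.3% of the variance of the Clip4 group means.

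Scan days of the arrays overlapped the strains in part. On 7 combinations of region and scan day an A/J array was scanned beside another strain, none of them in the bed nucleus or periaqueductal gray. Within these the A/J difference was 1.59 to 2.66 for 98524_f_at, 0.65 to 1.82 for 100989_at and 0.23 to 2.37 for Sspn, positive in 7 of 7, and -1.75 to -0.20 for Clip4, negative in 7 of 7. These probe sets were chosen on the same arrays for a large A/J difference of one sign in all 7 regions. Their signs here were thus largely set by that choice and are a description, not a check on scan day. Each combination held 1 or 2 A/J arrays, and some combinations shared A/J animals. The smallest Sspn and Clip4 values both came from the combination whose only other strain was 129S6/SvEvTac. The A/J difference was positive in 7 of 7 for 100991_at (0.03 to 0.94), and in 5 of 7 for 96199_at (-0.28 to 0.47) and 100990_g_at (-0.51 to 0.54). With scan day as a fixed term the A/J difference was 1.98 for 98524_f_at, 1.36 for 100989_at, 1.23 for Sspn and -1.06 for Clip4. The number of scans was uneven as well, with 26 of the 87 arrays scanned 1 time and 61 scanned 2 times. Of A/J 7 of 15 arrays were scanned 1 time, and of C57BL/6J 0 of 14. The part of the number of scans in the strain differences was not tested.

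Across regions the 4 genes differed from each other. Averaged over the 6 strains, the pituitary gland stood above the mean of the 4 brain regions labelled in the same way by 0.59 ± 0.07 for Sspn, 0.95 ± 0.10 for 100991_at, 0.38 ± 0.06 for 100990_g_at and 0.28 ± 0.05 for 96199_at, and below it for 98524_f_at (-0.35 ± 0.05) and Clip4 (-0.48 ± 0.11), each with an adjusted p of at most 7.98e-05 (limma), in a comparison that called 79.9% of all probe sets. For 98524_f_at of Mtm1 this average did not hold in A/J, whose level was 556 in the gland and 380 to 510 in the 4 brain regions, against 77.4 and 104 to 120 in the other strains. The average of 100990_g_at did not hold in A/J either. Its A/J level was 117 in the gland and 108 to 163 in the 4 brain regions. In the other strains it was 170 and 99.7 to 141. The pituitary difference of 100989_at was -0.13 ± 0.06 (limma, adjusted p = 0.0706). Its level was 94.4 in the gland and 130 to 196 in the 4 brain regions in A/J. In the other strains it was 55.1 and 50.4 to 66.2. In the bed nucleus 100989_at and 100990_g_at of Itgb1bp1 were higher than in the other 3 brain regions (0.27 ± 0.07 and 0.33 ± 0.06, limma adjusted p = 0.00145 and 3.24e-05; 14.9% of probe sets called), the first not with scan day as a random block (adjusted p = 0.0757). In the hippocampus Sspn (-0.37 ± 0.08), 96199_at (-0.25 ± 0.06) and 100990_g_at (-0.22 ± 0.06) were lower than in the other 3 (limma, adjusted p = 3.45e-05, 1.78e-04 and 0.00211; 49% called).

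In the hypothalamus 100989_at and 100990_g_at were lower (-0.19 ± 0.07 and -0.20 ± 0.06, limma adjusted p = 0.0232 and 0.00763; 34.5% called), neither with scan day as a random block (adjusted p = 0.0944 and 0.104). The first also did not pass without the first C3H/HeJ hypothalamus array (-0.12, adjusted p = 0.162). In the periaqueductal gray Sspn was higher by 0.20 ± 0.07 (limma, adjusted p = 0.0277) and 98524_f_at lower by -0.18 ± 0.06 (adjusted p = 0.00697; 40.7% called), which for 98524_f_at did not pass with arrays scaled to a common median (-0.12, adjusted p = 0.0941). The Sspn value did not pass without any 1 of 6 periaqueductal gray arrays (0.15 to 0.19, adjusted p = 0.0566 to 0.116). Between the regions amplified in 2 rounds, the amygdala exceeded the cingulate cortex by 0.85 ± 0.13 for Clip4, the largest of these differences, by 0.44 ± 0.07 for 100990_g_at, 0.30 ± 0.08 for 100989_at and 0.29 ± 0.09 for Sspn, and was lower for 96199_at (-0.18 ± 0.07), with limma adjusted p = 8.91e-07, 4.15e-06, 0.0024, 0.00929 and 0.0291 (34.6% called). Clip4 in the amygdala reached a level of 152 in A/J and 378 in the other strains, and in the cingulate cortex 86.1 in A/J and 199 in the other strains. The 96199_at value did not pass without any 1 of 7 arrays, and was smallest without the first A/J amygdala array (-0.13, adjusted p = 0.112). With the 42 group means as samples, 8 of the region differences above did not pass: those of 100989_at in the bed nucleus, hypothalamus and amygdala, 100990_g_at in the hypothalamus, 98524_f_at and Sspn in the periaqueductal gray, and Sspn and 96199_at in the amygdala (limma, adjusted p = 0.0739 to 0.285). The hippocampus value of 100990_g_at did not pass with scan day as a random block (adjusted p = 0.0861).

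Other genes of the pathways of the 4 genes had median A/J differences near that of all genes. Of all 6315 genes tested, 8.25% were higher and 6.73% lower, with a median difference of 0.02. Of 26 tested genes of phosphoinositide metabolism and the myotubularin family, 6 were higher and 2 lower, with a median of 0.02. Among them Pip5k1b and Pik3c2a, which make phosphoinositides, were higher by 0.25 and 0.23, the myotubularin-related phosphatase Mtmr14 was higher by 0.22 and Mtmr7, of the same family, lower by -0.30 (limma, adjusted p = 0.00627, 0.043, 0.0279 and 1.22e-04). Of 20 genes of integrin beta 1 adhesion, 3 were higher and 2 lower (median 0.01). The focal adhesion adaptors Pxn and Crk were higher by 0.24 and 0.23, Nme1, a nucleoside diphosphate kinase, lower by -0.33 in 92794_f_at and Vcl (vinculin) lower by -0.23, while integrin beta 1 itself (Itgb1) had -0.08 ± 0.05 (limma, adjusted p = 0.335). The Nme1 level in 92794_f_at was 210 in A/J and 213 in C3H/HeJ, and its other probe set, 161161_r_at, had -0.12 (limma, adjusted p = 0.51).

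Of 14 genes of the dystrophin complex, which holds the partners of sarcospan, none passed the test in either direction (median 0.01): Dmd, the dystrophin gene, had -0.08 ± 0.07, the dystroglycan gene Dag1 -0.02 ± 0.05 and the sarcoglycan gene Sgcb -0.06 ± 0.06. Of 24 genes of microtubule plus ends, 5 were higher and 1 lower (median 0.02). Among the 5 was Mapre1, by its brightest probe set 93306_at (0.17, limma adjusted p = 2.92e-04), while its probe set 92350_at had -0.74. The dynactin subunits Dctn5 and Dctn3 were higher by 0.23 and 0.18, Clip2 by 0.26 and the tubulin chaperone Tbcb was lower by -0.26 (limma, adjusted p = 8.6e-04, 0.00149, 0.0435 and 1.68e-05), and Clip1 had 0.04 ± 0.04. The 6 tested genes of 12 listed as skeletal muscle markers, Pvalb being on the list, summed to 286 to 1973 with a median of 1005 in A/J, against 309 to 2284 with a median of 826 in the other strains. Among regions labelled in a single round this sum was highest in the bed nucleus (median 1638) and lowest in the pituitary gland (421). Whether it came from muscle was not tested. Endothelial markers summed to 671 to 1323 (median 799) in A/J, against 560 to 1422 (median 788). Over all regions together A/J overlapped the other strains in both sums. Within the periaqueductal gray the endothelial sums did not overlap, at 946 and 961 in A/J against 717 to 875, whereas they did in each other region. Other marker sums did not overlap either. In the periaqueductal gray A/J was lower in astrocyte (7582 and 7683, against 7747 to 9647) and meningeal markers (535 and 551, against 620 to 838). In the pituitary gland A/J was higher in choroid plexus markers (361 and 374, against 208 to 316). The part of muscle or endothelium in the levels of Sspn or Itgb1bp1 was not tested. Pituitary markers summed to a median of 1944 in A/J, against 595 in the other strains, over all arrays. Of their 8 tested genes 2 were higher in A/J, Tshb by 0.57 and Pomc by 0.48 (limma, adjusted p = 0.00393 and 0.0237), none was lower and the median was 0.48. In the hypothalamus their sums were 4634 and 5304 in A/J, against 570 to 8826 in the other strains, and in the cingulate cortex they reached 11371 in A/J and 3984 in the other strains. In the hippocampus they were 339 and 406 in A/J, against 305 to 3236. In the amygdala they were 305 and 9598 in A/J, against 293 to 8619 in the other strains. The part of pituitary RNA in the levels of the leading probe sets was not tested in any brain region.

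Likeness to each leading probe set was measured by Pearson's correlation over the 42 group means, which share arrays scanned together and a labelling protocol. The probe set most like Mtm1 98524_f_at was 100989_at of Itgb1bp1, at 0.81 (0.85 over the 36 groups without the pituitary gland), ahead of Uap1, an enzyme of UDP-N-acetylglucosamine synthesis, at 0.61, Zfp617 at 0.55, Rap2b at 0.55 and 4833420G17Rik at 0.54. After Mtm1, those most like Itgb1bp1 were Glo1 (glyoxalase 1) at 0.60, Rpa3 at 0.54, Ctsc (cathepsin C) at 0.52 and Pih1d1 at 0.49. Mtm1 and Itgb1bp1 were both chosen for a high A/J value, which is part of this likeness. For Sspn they were Rpp14 at 0.72, Micos10 at 0.70, Mrpl48 at 0.70, Acaa1b at 0.69 and Mrpl35 at 0.68. For Clip4 they were Mapre1 (the plus-end protein EB1) at 0.86, Nme1 at 0.85, Dbnl at 0.84, Tgs1 at 0.83 and Rngtt at 0.82. Mapre1, whose other tested probe set was looked up after these values were seen, differed between probe sets: 92350_at had an A/J difference of -0.74 and 93306_at one of 0.17. The value of 92350_at is given without a test since likeness to Clip4 led to it, and 93306_at is the probe set counted above among the microtubule genes.

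The genes next to each member were examined for the same strain pattern. Among the 5 genes to each side, none of 4 tested passed beside Mtm1, where the related phosphatase gene Mtmr1 had -0.04 ± 0.08. Beside Itgb1bp1, Cpsf3, which encodes an endonuclease of mRNA 3′ processing, was lower (-0.33, limma adjusted p = 1.42e-04), and the sheddase gene Adam17 had 0.06 ± 0.08 (adjusted p = 0.681). Beside Sspn the calcium channel gene Itpr2 was higher (0.23, adjusted p = 0.0208), and beside Clip4 the receptor tyrosine kinase gene Alk was lower (-0.15, adjusted p = 0.0406).

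A wider span of 10 protein-coding genes to each side was chosen after those values were seen. Near Sspn, Fgfr1op2 had a level of 104 in A/J, beside 275 to 287 in 4 strains and 93.1 in 129S6/SvEvTac (A/J difference -1.02, limma adjusted p = 9.24e-19). Bcat1, a branched-chain aminotransferase, was higher (0.55, limma adjusted p = 2.27e-08), with a level of 601 in A/J, beside 277 to 463 in the same 4 strains and 605 in 129S6/SvEvTac. Tm7sf3 was lower (-0.39, limma adjusted p = 2.78e-09). Its level was 190 in A/J, 210 in 129S6/SvEvTac and 209 in C57BL/6J, beside 276 to 303 in FVB/NJ, C3H/HeJ and DBA/2J. The 4 genes tested near Sspn passed, 2 higher and 2 lower, where 8.25% of all genes were higher and 6.73% lower, and A/J lay nearest to 129S6/SvEvTac in Fgfr1op2 and Bcat1. Near Clip4, Xdh (xanthine dehydrogenase) was higher by 0.50 and Memo1 by 0.21 (limma, adjusted p = 1.37e-05 and 0.0199), and near Mtm1 none of 7 passed.

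**Figure D5:**
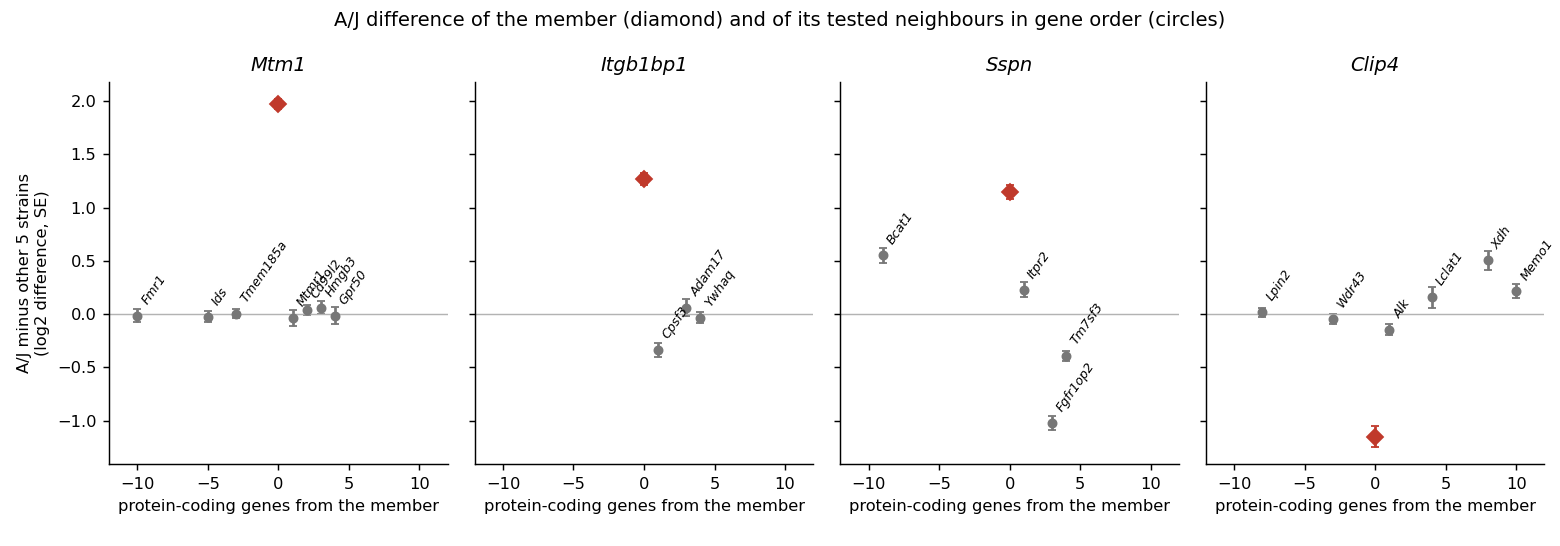
The red diamond is the leading probe set of each gene and the circles are its tested neighbours within 10 protein-coding genes to each side, placed by gene order, with the log2 difference of A/J from the other 5 strains and its SE. The neighbours of Mtm1 lie near 0, and those of Sspn run from -1.02 (Fgfr1op2) to 0.55 (Bcat1).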

How the data were processed

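The authors deposited a matrix of intensity values per probe set, on a linear scale with background subtracted (6.35% lie below 0), and an experiment file for each array that gives its scan times per the file headers. For software and scaling of these intensity values, the sources used here give nothing. Negative values entered as 0, and log2(intensity + 16) was used without further scaling, since log2 array medians ranged over 0.493. The number of arrays limits the precision.

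Of 12488 probe sets, 66 controls were left out, and testing required a highest group mean above 55.4, which is the overall median. Symbols came from the array's annotation, and 10817 were updated by gene identifier from RefSeq names. Each of the 42 groups had its own mean in a limma fit (version 3.58.1, R 4.3.3, statmod 1.5.0), adjusted over the 8460 tested probe sets by the method of Benjamini and Hochberg. The fits were tested on simulated data. Strains were weighted equally over regions. Alternatives were the number added, scaling, filters, scan day, replicate number, array weights, group means, regions or arrays left out.

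The members and lists were chosen with earlier results of these data known. Named were every probe set of the 4 genes, the 5 probe sets most correlated with each leading one, up to 4 genes of each list and up to 4 neighbours with the largest A/J difference, and genes ranked beside a member. Lists named in the text are of phosphoinositide, integrin, dystrophin and microtubule genes and of region and cell markers, each gene entering by its brightest probe set. Replicate numbers did not pair arrays: deviations of 105 same-numbered pairs correlated at -0.311 to 0.486, and 24 exceeded 0.1.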

Additional observations from a re-analysis of the deposited data

Results flagged for a closer look

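A/J differed from the other 5 strains by an amount that depended on the region for 3 of the 7 probe sets. The limma F test of that dependence over the 7 regions called 5.31% of all tested probe sets. The F statistic was 6.03 for Mtm1 98524_f_at, 5.73 for Itgb1bp1 100989_at and 6.29 for Itgb1bp1 100990_g_at, with adjusted p = 0.00788, 0.0101 and 0.00594. Without the pituitary gland none of the 3 passed (limma F test, adjusted p = 0.463, 0.208 and 0.390). The pituitary gland carried the largest A/J difference of the first (2.61) and the lowest signed difference of the other 2 (0.63 and -0.49). Why was not tested.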

How the results depend on the processing

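No difference of the 7 probe sets changed sign as a call under any alternative. As a description, the A/J difference was 1.62 to 2.09 for 98524_f_at over 15 alternatives, 0.90 to 1.42 for 100989_at, -1.32 to -0.78 for Clip4 and 0.66 to 1.47 for Sspn (14). That of 96199_at (0.12 to 0.26) passed in all 15. The stricter filter left out Sspn and 100991_at, whose mean signal is below the median, so dimness limits both. Over all comparisons of single probe sets, 1273 alternative values kept their call, 77 lost it and 22 gained it.

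Counts of probe sets called moved more. For A/J they were 1252 as reported, 749 with scan day as a random block, 523 with it as a fixed term (chosen after seeing the data) and 338 with 42 group means as samples. Among the other 5 strains they were 2775, 1525, 1406 and 1050. For the A/J difference by region they were 449, 85 with the random block and 204 without the pituitary gland. With group means the bed nucleus had 675 (672 with the random block, 1262 as reported), the hypothalamus 1865 (2918), the periaqueductal gray 2269 (3439) and the amygdala 1800 (2929). The fits on group means hold fewer samples, and the cause of the other shifts was not tested. Leaving out 1 array at a time gave 902 to 1421 for A/J, 2588 to 2981 for the 5 strains, 266 to 612 for the A/J difference by region (266 without the second A/J amygdala or bed nucleus array, 285 without the first A/J pituitary array), 1092 to 1328 for the bed nucleus, 3910 to 4208 for the hippocampus, 2604 to 3010 for the hypothalamus, 2987 to 3537 for the periaqueductal gray, 6630 to 6794 for the pituitary gland and 2664 to 3127 for the amygdala.

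With the replicate number as a block, Clip4 passed among the 5 other strains (limma, adjusted p = 0.0413), in the hypothalamus (0.26, adjusted p = 0.0334) and in FVB/NJ against the other 4 (0.29, adjusted p = 0.0237), and no other call of the 7 probe sets changed. In 100990_g_at, C3H/HeJ and FVB/NJ each exceeded the mean of the other 4 strains without A/J by 0.17 (limma, adjusted p = 0.0465 and 0.0334). These contrasts called 8.1% and 11.1% of all probe sets. Without the 4 pituitary arrays in doubt the differences were 0.19 and 0.20 (limma, adjusted p = 0.0304 and 0.0216). Averaging arrays that name the same animals cost 100990_g_at both calls (limma, adjusted p = 0.0536 and 0.0578).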
